A study of Mus musculus with 2 samples.

Results

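The miR-130/miR-301 and miR-148/miR-152 families are groups of mouse microRNAs (miRNAs) whose seeds, the bases at positions 2 to 8 that choose a target mRNA, are almost the same. The 7 members followed here were mmu-miR-130a-3p, mmu-miR-130b-3p, mmu-miR-301a-3p and mmu-miR-301b-3p of the first family, and mmu-miR-148a-3p, mmu-miR-148b-3p and mmu-miR-152-3p of the second. They were chosen by name, as all spots annotated with these mature miRNAs among the 1881 mouse miRNAs on the array, a rule that uses no measured value.

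Exosomes, small vesicles released by cells, were isolated from the serum of 6-week-old female C57BL/6 mice bearing subcutaneous tumours of Lewis lung carcinoma (LLC), an established line of mouse lung cancer cells. Mice of the LLC group received 1000000 LLC cells carrying luciferase alone, and those of the MSC+LLC group received them together with mesenchymal stem cells from mouse bone marrow (BMSCs). Blood was taken once the tumours had grown to a mean of 200 mm3, and 100 ng of exosomal RNA was labelled with Cy3 for each array. The number of BMSCs injected, the number of mice behind each array and any pooling of mice were not given in the sources used here, and the starting fluid is serum in the sample labels but plasma in the study's text. The comparison asked which exosomal miRNAs differed when BMSCs had been injected along with the cancer cells. Each group had 1 array, so no test could be made, each SD beside a brightness is the spread among spots on 1 array and each SD beside a log2 ratio combines the spots of both arrays over the member's probes, and the difference between the groups cannot be told apart from the difference between 2 arrays or 2 RNA preparations.

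A miRNA is cut from a hairpin that yields a 5p and a 3p strand, one of which is usually kept and loaded into an Argonaute protein, where its seed pairs with sites in target mRNAs. The miR-130/miR-301 family is best known from blood vessels and fat, where miR-130a represses the antiangiogenic homeobox genes Gax and Hoxa5 and miR-130 represses Pparg, the main transcription factor of fat cells. The miR-148/miR-152 family is known for repressing the DNA methyltransferase Dnmt1, and miR-148a is abundant in liver, where it represses the LDL receptor.

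The mature sequences of 6 of the 7 members were found in RefSeq and are shown because the closeness of the families lies in their first bases. The seed is in capitals and the other bases are in lower case, from 5′ to 3′.
mmu-miR-130a-3p: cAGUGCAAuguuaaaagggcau
mmu-miR-130b-3p: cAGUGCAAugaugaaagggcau
mmu-miR-301a-3p: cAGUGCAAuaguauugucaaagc
mmu-miR-148a-3p: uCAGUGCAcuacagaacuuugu
mmu-miR-148b-3p: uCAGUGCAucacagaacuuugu
mmu-miR-152-3p: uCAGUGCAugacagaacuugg

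The seed of the miR-130/miR-301 members was AGUGCAA and that of the miR-148/miR-152 members was CAGUGCA, so the families shared a run of 6 bases, AGUGCA, displaced by 1 position. The complement of this arrangement, UUGCACUG, is an 8-base run that pairs with both seeds. Outside the seed the members of a family differed to unequal extents. With positions counted from the 5′ end, miR-130a-3p and miR-130b-3p were identical at 20 of 22 positions and differed by U11A and A13G, whereas miR-130a-3p and miR-301a-3p were identical at 12 of 22. In the other family, miR-148a-3p and miR-148b-3p were identical at 20 of 22 positions and differed by C9U and U10C, and miR-148b-3p and miR-152-3p were identical at 19 of 21 and differed by C10G and U20G. A probe for one member may therefore also bind a near-identical member, and how much of each signal this made up was not tested.

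Apart from miR-130b-3p and miR-301b-3p, whose genes are neighbours, the members come from separate loci. Positions are given here on build GRCm38.p6 of RefSeq. The mature miR-130a-3p lies at chr2:84741116-84741137 on the minus strand, outside any other annotated gene. The mature miR-130b-3p lies at chr16:17124071-17124092 on the minus strand, and its nearest annotated gene was that of miR-301b, both within the span of the gene 2610318N02Rik. The mature miR-301a-3p lies at chr11:87113054-87113076 on the plus strand within Ska2, a gene needed for chromosome segregation. The mature miR-148a-3p lies at chr6:51269829-51269850 on the minus strand within the predicted gene Gm38821. The mature miR-148b-3p lies at chr15:103285185-103285206 on the plus strand within Copz1, and miR-152-3p at chr11:96850439-96850459 on the plus strand within Copz2. Copz1 and Copz2 encode paralogous subunits of the vesicle coat COPI, so miR-148b and miR-152 sit in paralogous host genes.

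The members were read by 16 probes, 2 for each member and 4 for miR-301b-3p, and most probes were printed as 15 spots. Detection of a probe required that over 50% of the spots kept for it stood well above background. By this rule the LLC array detected all 7 members, against 26.7% of all miRNAs, and the MSC+LLC array 6 of 7, against 13.7% of all miRNAs. The exception was miR-301b-3p. Brightness was far lower on the MSC+LLC array, with a 75th percentile of 250.3 scanner units against 2883 on the LLC array for probes that both detected. Before scaling 226 of the 240 miRNAs with a value on each array were dimmer there, with a median log2 ratio of -3.38. Spike-in RNAs added at hybridization differed by a log2 ratio of 0.04 and those added at labelling by -1.32. The negative control spots averaged 2.09 ± 3.82 (SD, 986 spots) and 3.70 ± 3.43 (SD, 965 spots) on the LLC and MSC+LLC arrays, whose dimmest detected probes were at 20.9 and 18.8.

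Levels are given below as background-subtracted brightness in scanner units before scaling. The brightness of one probe cannot be set against that of another, as probes bind with unequal strength, so only the 2 arrays are compared for each probe. On 14 of the 16 member probes, every LLC spot was brighter than every MSC+LLC spot. The remaining 2 probes, both of miR-301b-3p, were not well above background on either array. The MSC+LLC array was dimmer before scaling for 226 of the 240 miRNAs measured on both arrays. The same count of separated spots was not made over all probes, so nothing particular to the members was read from it.

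**Figure D1:**
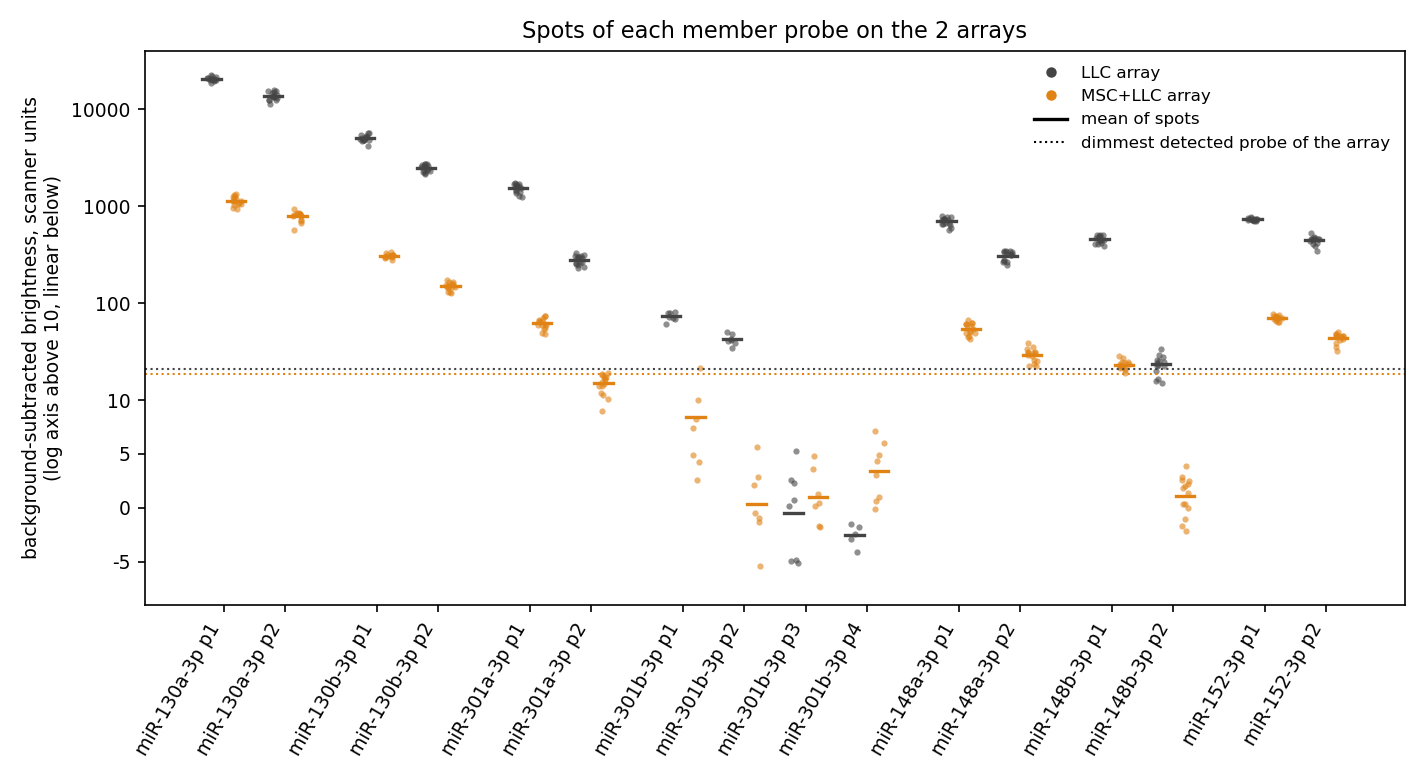
Background-subtracted brightness of every kept spot (points) and the mean of spots (bars) for the 16 member probes (p1 to p4) on the LLC and MSC+LLC arrays, on an axis that is logarithmic above 10 and linear below. The dotted lines mark the dimmest detected probe of each array, at 20.9 and 18.8. All LLC spots lie above all MSC+LLC spots for 14 of the 16 probes, a separation not counted over the whole array. Before scaling, brightness was lower for MSC+LLC in 226 of 240 miRNAs, so nothing particular to the members is read from the 14.

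In the miR-130/miR-301 family, the brighter probe of miR-130a-3p gave 20586 ± 1046 (SD, 14 spots) on the LLC array, with spots from 18648 to 22483 and a median of 20496. On the MSC+LLC array it gave 1135 ± 119 (SD, 15 spots), with spots from 942.7 to 1320 and a median of 1130. Its other probe averaged 13701 ± 1354 and 786.6 ± 88.0 (SD, 15 spots each). The spots of both probes were thus far apart between the arrays, and miR-130a-3p was 17.8-fold dimmer on the MSC+LLC array before scaling.

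The brighter probe of miR-130b-3p, which differs from miR-130a-3p at 2 bases, gave 5023 ± 402 (SD, 15 spots, from 4184 to 5694 with a median of 4994) on the LLC array. On the MSC+LLC array it gave 307 ± 15.6 (SD, 14 spots, from 276 to 338 with a median of 304). The other probe averaged 2471 ± 200 and 149 ± 12.9 (SD, 15 spots each). This made miR-130b-3p 16.4-fold dimmer on the MSC+LLC array before scaling, close to the value for miR-130a-3p.

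Of miR-301a-3p, which was identical to miR-130b-3p at 11 of 22 positions, 1 of 2 probes was detected on both arrays. This probe gave 1530 ± 162 (SD, 15 spots, from 1249 to 1751 with a median of 1588) on the LLC array and 61.8 ± 7.95 (SD, 15 spots, from 47.8 to 74.5 with a median of 60.7) on the MSC+LLC array, a 24.8-fold difference before scaling. The other probe gave 279 ± 30.6 (SD, 15 spots) on the LLC array but failed the detection rule for MSC+LLC, where all 15 spots lay from 9.02 to 19.2. For that probe only a bound could be given, at least 14.9-fold dimmer before scaling.

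The member encoded beside miR-130b, miR-301b-3p, was seen on the LLC array alone. Its probes there gave 73.1 ± 6.97 (SD, 7 spots, from 61.4 to 81.1 with a median of 72.2) and 42.4 ± 5.37 (SD, 7 spots, from 34.7 to 50.1 with a median of 42.0). On the MSC+LLC array the same probes gave 8.41 ± 6.26 and 0.37 ± 3.55 (SD, 7 spots each), and 1 of these 14 spots was well above background. Before scaling the brighter probe was at least 3.89-fold dimmer on the MSC+LLC array and the other at least 2.26-fold. After scaling no bound remained: given its brightness on the LLC array, miR-301b-3p would have been seen on the dimmer array only if it had been at least 2.96-fold higher there. The level of miR-301b-3p relative to the other miRNAs of the MSC+LLC array was therefore not detectable at this brightness.

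In the miR-148/miR-152 family, the brighter probe of miR-148a-3p gave 696 ± 65.0 (SD, 15 spots, from 571 to 782 with a median of 717) on the LLC array and 54.6 ± 7.51 (SD, 15 spots, from 42.2 to 66.6 with a median of 54.0) for MSC+LLC. The other probe of miR-148a-3p gave 309 ± 34.3 and 29.3 ± 4.75 (SD, 15 spots each). Its difference before scaling, 11.6-fold or a log2 ratio of -3.53, almost equalled that between the 75th percentiles of the arrays.

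The probe of miR-148b-3p that was detected on both arrays gave 455 ± 39.0 (SD, 15 spots, from 392 to 502 with a median of 451) on the LLC array. On the MSC+LLC array it gave 23.2 ± 2.45 (SD, 15 spots, from 18.9 to 28.5 with a median of 22.7), and 14 of these 15 spots were well above background. This mean was 1.23 times that of the dimmest detected probe, the thinnest margin among the members. The other probe gave 23.3 ± 5.29 (SD, 14 spots) on the LLC array, where 10 of the 14 spots were well above background, and 1.10 ± 1.81 (SD, 14 spots) on the MSC+LLC array, where none was. By its detected probe, miR-148b-3p was 19.6-fold dimmer for MSC+LLC before scaling.

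The brighter probe of miR-152-3p gave 730 ± 19.8 (SD, 14 spots, from 707 to 779 with a median of 728) on the LLC array and 70.5 ± 4.17 (SD, 13 spots, from 63.7 to 77.3 with a median of 70.8) for MSC+LLC. The other probe of miR-152-3p gave 442 ± 43.5 and 43.5 ± 5.19 (SD, 14 spots each). The 10.3-fold difference before scaling was the smallest among the 6 members measured on both arrays.

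For the comparison of the groups, each array was divided by its 75th percentile over the probes detected on both arrays, which raised every log2 ratio of MSC+LLC over LLC by 3.53, and the ratios of a member's detected probes were averaged. The 240 miRNAs measured on both arrays then had a median log2 ratio of 0.15 and quartiles of -0.45 and 1.18. Of the 6 members measured, 1 was lower by 2-fold or more in MSC+LLC, against 11.2% of the 240 miRNAs, and 0 were at least 2-fold higher, against 27.1%. The member at least 2-fold lower was miR-301a-3p, which was not called when detection followed the scanner software's flag, at -0.90 with its second probe included, or with normexp, at -0.42. A count of 1 among 6 is near the background share, and with so few members nothing was read from either count.

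The log2 ratio of miR-301a-3p was -1.10 with a spot-to-spot SD of 0.24, or 2.15-fold lower, and 8.75% of the 240 miRNAs had a lower ratio. Its second probe, undetected on the MSC+LLC array, was at least 1.29-fold lower. The log2 ratio of miR-130a-3p was -0.63 with an SD of 0.19, with its probes at -0.65 and -0.60, and 17.5% of the miRNAs had a lower ratio. The log2 ratio of miR-130b-3p was -0.51 with an SD of 0.15, with its probes at -0.50 and -0.52, and 22.5% had a lower ratio. All 3 measured members of the miR-130/miR-301 family thus lay below the median of the 240 miRNAs by more than the spot-to-spot SD, by 0.66 to 1.25 on the log2 scale, and all 3 lay below the median of the measured miRNAs under each of the 11 alternatives that gave a ratio. Their log2 ratios were below 0 under all 11 too. For the 4 alternatives that lower every ratio by a constant, both outcomes were fixed by construction. The median of the 240 is itself shaped by detection, since a miRNA dim on the LLC array entered them only if its ratio was high. The part of this in the distance of the members from the median was not tested.

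The miR-148/miR-152 members were more spread. The log2 ratio of miR-148b-3p was -0.77 with an SD of 0.20, or 1.70-fold lower, and 13.3% of the miRNAs had a lower ratio, but the sign turned to 0.64 with normexp background correction. With normexp the median of all measured miRNAs was 0.84, and the difference of miR-148b-3p from it was -0.20. The log2 ratio of miR-148a-3p was -0.01 with an SD of 0.26, with its probes at -0.14 and 0.13 on opposite sides of 0, and 42.5% had a lower ratio. The log2 ratio of miR-152-3p was 0.17 with an SD of 0.17, with its probes at 0.15 and 0.18, and 50.8% had a lower ratio. The values of miR-148a-3p and miR-152-3p were no larger than their spot-to-spot SD, and their sign depended on the setting: apart from the 4 alternatives that lower every ratio by a constant, under which both were negative by construction, miR-152-3p was at -0.06 after quantile normalization and -0.15 in the deposited values and above 0 under the other 5, and miR-148a-3p was below 0 under all but normexp, where it was 0.88. Against the median of the measured miRNAs, miR-152-3p lay between -0.05 and 0.07 under all settings. Over the 12 settings, the main one included, miR-148b-3p lay below that median under 12, miR-148a-3p under 11 and miR-152-3p under 2. The 4 constant shifts repeat the main setting here by construction. Lying below the median was thus not particular to the miR-130/miR-301 family.

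**Figure D2:**
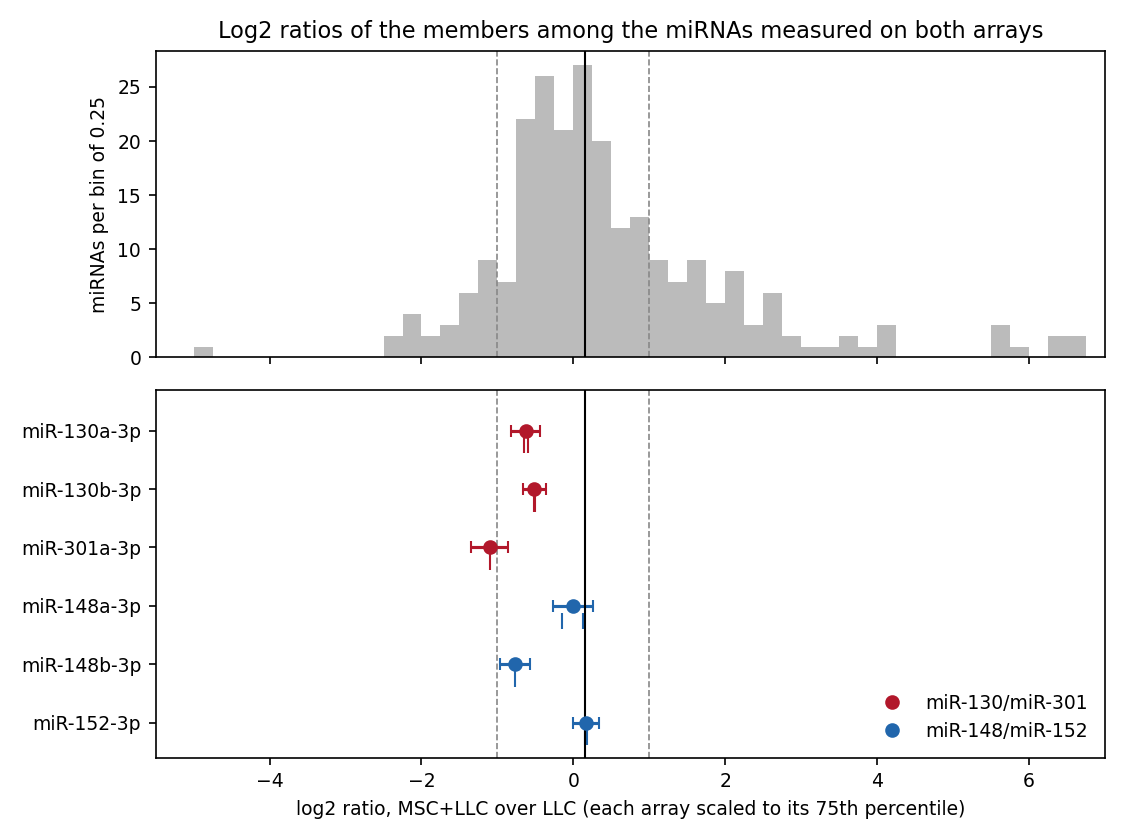
The upper panel shows the log2 ratios of the 240 miRNAs measured on both arrays, with the median of 0.15 as a solid line and 2-fold marked by dashed lines. The lower panel shows the 6 measured members (point, mean over probes; bar, spot-to-spot SD; ticks, single probes), with the miR-130/miR-301 members at -1.10 to -0.51 and the miR-148/miR-152 members at -0.77 to 0.17, where the signs of miR-152-3p and miR-148a-3p and, with normexp, of miR-148b-3p turn under other settings. With normexp the median of all measured miRNAs was 0.84.

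Within the miR-130/miR-301 family, miR-130a-3p and miR-130b-3p differed by 0.11 in log2 ratio, less than their combined spot-to-spot SD of 0.25. The ratio of miR-301a-3p lay below that of miR-130a-3p by 0.48, against a combined SD of 0.31, and below that of miR-130b-3p by 0.59, against 0.29. Within the miR-148/miR-152 family, miR-148a-3p and miR-152-3p differed by 0.17, less than their combined SD of 0.31. The ratio of miR-148b-3p lay below those of its relatives, by 0.76 against a combined SD of 0.33 for miR-148a-3p and by 0.94 against 0.26 for miR-152-3p. These SDs cover spots on an array and not mice, so none of these differences between members was tested across animals.

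The median log2 ratio was -0.63 for the 3 measured miR-130/miR-301 members and -0.01 for the 3 miR-148/miR-152 members, beside 0.15 for all 240 miRNAs. The families overlapped, since miR-148b-3p at -0.77 lay between miR-301a-3p and miR-130a-3p. In the order from the lowest ratio, the members ran miR-301a-3p, miR-148b-3p, miR-130a-3p, miR-130b-3p, miR-148a-3p and miR-152-3p. The neighbours miR-148b-3p and miR-130a-3p differed by 0.14, less than their combined spot-to-spot SD of 0.28. The differences between miR-130a-3p and miR-130b-3p and between miR-148a-3p and miR-152-3p were also less than their combined SD. That SD is the spread of single spots and not the error of a mean, so whether this order holds was not tested.

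How low a ratio could be followed depended on the brightness on the LLC array. The lowest log2 ratio that the dimmest detected probe of the MSC+LLC array allowed was -6.57 for miR-130a-3p, -4.54 for miR-130b-3p and -2.82 for miR-301a-3p, all well under their measured values. The limit was -1.75 for miR-152-3p and -1.68 for miR-148a-3p. For miR-148b-3p it was -1.07, so that a ratio only slightly lower than the measured one would have been lost. The same limit shaped the 240 miRNAs used as background, because a miRNA that was dim on the LLC array entered them only if its ratio was high, as the plot of ratio against brightness shows.

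**Figure D3:**
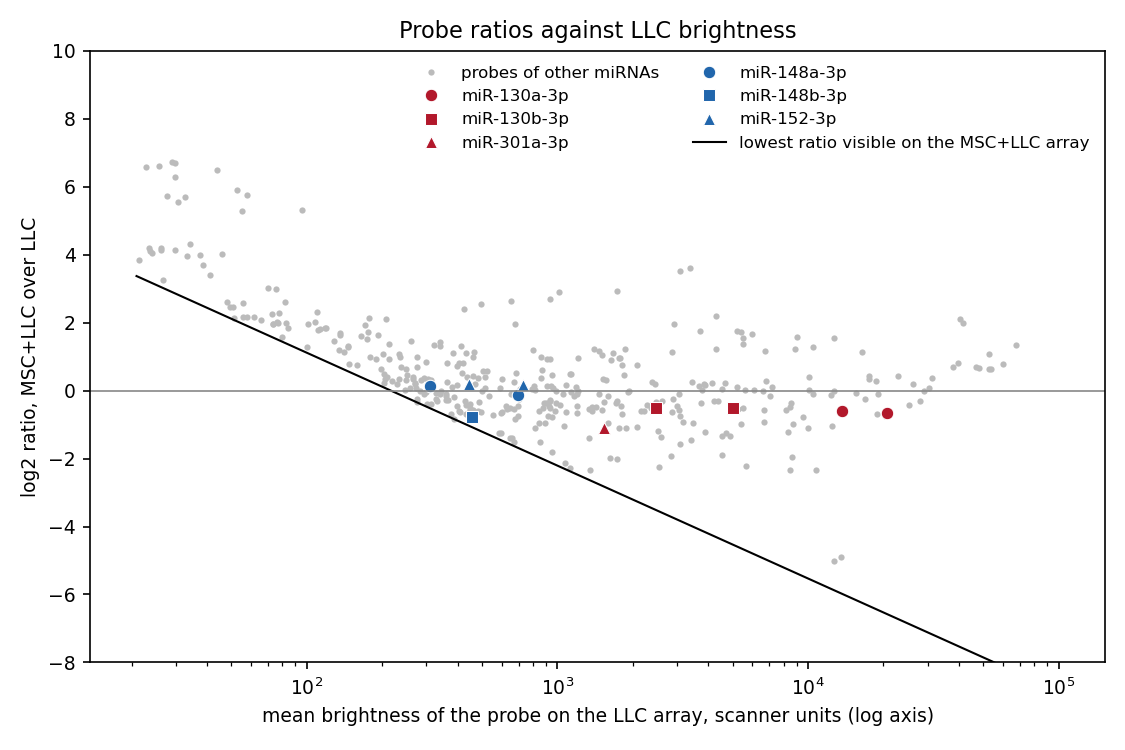
Log2 ratio of MSC+LLC over LLC (75th percentile scaling) against mean brightness on the LLC array, on a log axis, for every probe detected on both arrays, with the 10 member probes in colour. The line is the lowest ratio that the dimmest detected probe of the MSC+LLC array allows, and the miR-148b-3p probe at -0.77 lies closest to it among the member probes, with a limit of -1.07.

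The choice of scaling moved all ratios together. Relative to the main setting, the median log2 ratio of all measured miRNAs shifted by -1.21 when the percentile was taken over all probes, by -2.21 with the labelling spike-ins, -3.53 without scaling, -3.56 with the hybridization spike-ins, -0.28 after quantile normalization, 0.69 with normexp and -0.35 in the deposited log2 values. Under the first 4 of these, which shift each array by a constant, the order of the members and the share of miRNAs below each of them are fixed by construction. Under the 75th percentile of all probes all 6 members were at least 2-fold lower, from -2.32 for miR-301a-3p to -1.05 for miR-152-3p. In the deposited log2 values miR-301a-3p went from 1.89 to 0.54 and miR-148b-3p from -0.03 to -1.18, and miR-301b-3p went from -3.17 to -6.80, the value that every undetected miRNA of the MSC+LLC array carries there. The deposited differences of the other members were -0.95 for miR-130a-3p, -0.83 for miR-130b-3p, -0.37 for miR-148a-3p and -0.15 for miR-152-3p.

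The place of each member among the measured miRNAs was less dependent on the setting for some members than for others. Over the main setting and the 11 alternatives, the share of measured miRNAs with a lower ratio ran from 8.33% to 13.2% for miR-301a-3p, from 5.83% to 20.7% for miR-130a-3p and from 10.8% to 35.0% for miR-130b-3p. It ran from 47.8% to 52.1% for miR-152-3p and from 35.8% to 51.2% for miR-148a-3p, so these stayed near the middle of the distribution. For miR-148b-3p it ran from 7.92% after quantile normalization to 43.8% with normexp. Normexp adds 50 units to every spot, and the detected probe of miR-148b-3p averaged 23.2 on the MSC+LLC array. The part of this offset in the change of place was not tested. The ratio of miR-301a-3p was the lowest of the 6 under 10 of these 12 settings, the exceptions being quantile normalization, with miR-148b-3p lowest at -1.40, and normexp, with miR-130a-3p lowest at -0.82.

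**Figure D4:**
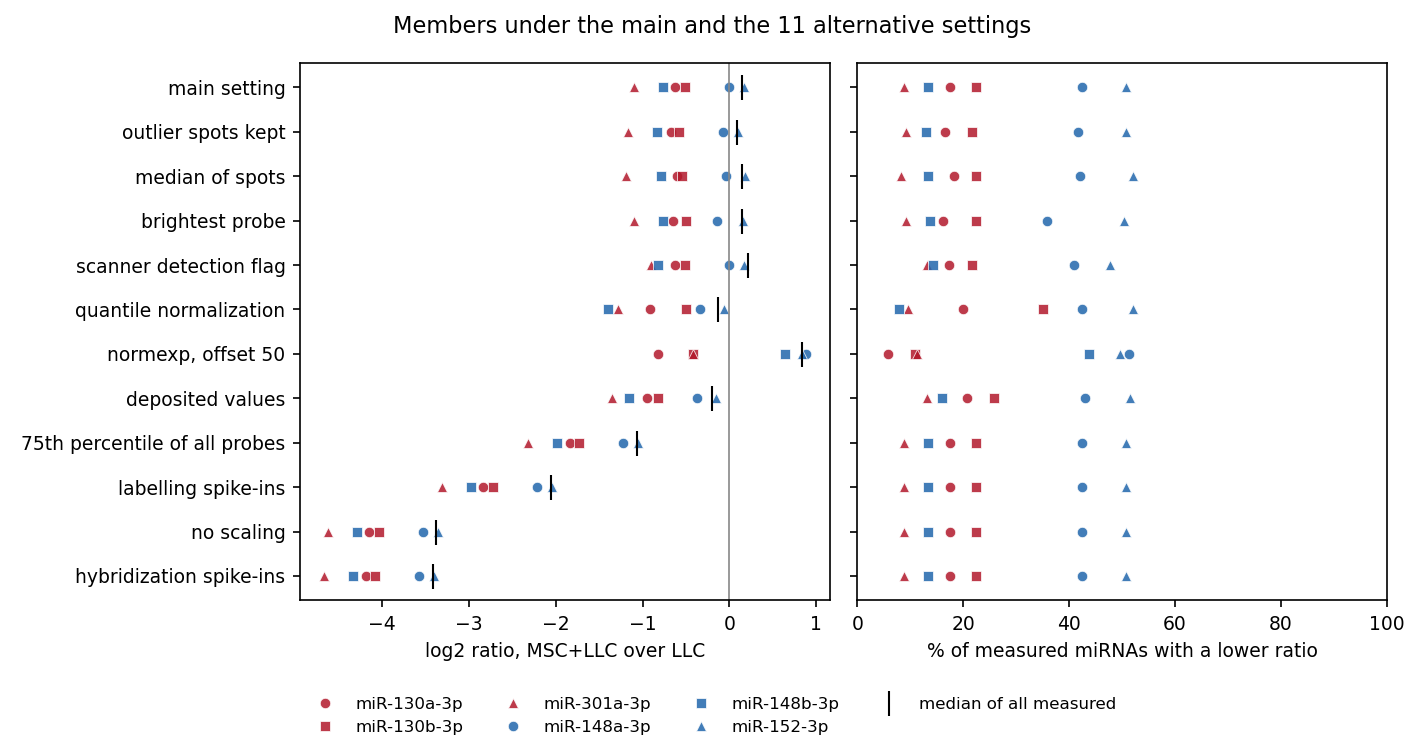
Log2 ratio of MSC+LLC over LLC (left) and percentage of measured miRNAs with a lower ratio (right) for the 6 measured members under the main and 11 alternative settings, with the median of all measured miRNAs as a black tick. For miR-301a-3p the log2 ratio runs from -0.42 with normexp to -4.67 with the hybridization spike-ins, and the percentages range most for miR-148b-3p (7.92 to 43.8) and miR-130b-3p (10.8 to 35.0) and least for miR-152-3p (47.8 to 52.1) and miR-301a-3p (8.33 to 13.2).

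The opposite strands of the 7 hairpins, miR-130a-5p, miR-130b-5p, miR-301a-5p, miR-301b-5p, miR-148a-5p, miR-148b-5p and miR-152-5p, were each on the array. Their 18 probes were at the level of the negative controls. The brightest averaged 2.90 on the LLC array, for miR-148b-5p, and 1.23 on the MSC+LLC array, for miR-130a-5p. Of the 206 LLC spots and 199 MSC+LLC spots kept for them, 0 were well above background. The 3p strand was thus detected without its 5p partner for all 7 hairpins on the LLC array and for 6 on the MSC+LLC array, where miR-301b had neither, as far as these probes could show.

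A further 4 miRNAs on the array carry the miR-130/miR-301 seed, and none besides the members carries that of miR-148/miR-152 among the 1608 array miRNAs with a RefSeq sequence. Their sequences are shown because they differ from the members only after the seed, which is in capitals.
mmu-miR-721: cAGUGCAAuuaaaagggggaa
mmu-miR-130c: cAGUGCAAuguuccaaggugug
mmu-miR-6341: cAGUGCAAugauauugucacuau
mmu-miR-6389: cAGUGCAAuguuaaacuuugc

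Only miR-721 was detected. Its 4 probes averaged 174, 186, 175 and 202 on the LLC array, with all spots well above background, and 9.86 to 13.0 on the MSC+LLC array, where no probe was detected and no bound remained after scaling. It was identical to miR-130a-3p and to miR-130b-3p at 15 of 21 positions each. The probes of miR-130c, miR-6341 and miR-6389 averaged at most 0.84 for LLC and 2.77 for MSC+LLC, with 0 spots well above background. Among the miRNAs with a RefSeq sequence, the miR-130/miR-301 seed was therefore seen on the LLC array in miR-130a-3p, miR-130b-3p, miR-301a-3p and miR-721, and on the MSC+LLC array in all of these but miR-721.

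A wider group was formed by the miRNAs that hold AGUGC, the shared run without its last base, within their first 8 bases, read on the mature strand. This holds for 32 of the 1608 array miRNAs with a sequence, 1.99%, of which 26 are not members, including the 4 above. The LLC array detected 7 of the 26 and the MSC+LLC array 4, and these 4 belong to the miR-17 family and its relatives, known as promoters of cell growth. Under the 75th percentile scaling their log2 ratios were -1.17 for miR-20b-5p, -0.97 for miR-20a-5p, -0.74 for miR-106b-5p and 0.01 for miR-93-5p, with a median of -0.86 beside 0.15 for all 240 miRNAs, and 1 of 4 was at least 2-fold lower. The range of these 4 was close to that of the members.

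Among miRNAs outside the families with at least 2 probes measured on both arrays, those whose ratio was nearest to a member, by the absolute difference of log2 ratios over the 2 arrays, were miR-3474 and miR-6984-5p for miR-130a-3p, miR-126a-3p and miR-1904 for miR-130b-3p, and miR-3102-5p and miR-140-5p for miR-301a-3p. For the other family they were miR-93-5p and miR-7082-5p for miR-148a-3p, miR-106b-5p and miR-5119 for miR-148b-3p, and miR-211-3p and miR-342-3p for miR-152-3p. Each lay within 0.04 of its member, and miRNAs read by a single probe, some of them nearer, were not considered. With 2 arrays such a likeness is 1 number per miRNA and says nothing of a shared pattern.

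The members were poorer in G and C than most miRNAs measured. Their GC content ran from 39.1% for miR-301a-3p to 47.6% for miR-152-3p, with 40.9% for miR-130a-3p, miR-148a-3p and miR-148b-3p and 45.5% for miR-130b-3p, while the median of the 197 measured miRNAs with a sequence was 52.4%. Across these 197 miRNAs the log2 ratio had a Spearman correlation of 0.31 and a Pearson correlation of 0.18 with GC content, of -0.05 and -0.04 with U content and of -0.15 and -0.12 with length. The miRNAs share the 2 arrays and are not independent replicates, so these are descriptions, and the part of base composition in the members' ratios was not tested.

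Markers of cells that release miRNAs into blood differed between the arrays as well. Of the red cell miRNAs, 4 of 4 were measured, with miR-451a at 1.06 and miR-486a-5p at 1.66 but miR-144-3p and miR-144-5p both at -2.33, and their summed brightness before scaling, of which miR-451a made up 67741 and 15004, was 88920 for LLC and 17572 for MSC+LLC. Of the liver miRNAs, 3 of 3 were detected for LLC and 2 of 3 for MSC+LLC, with miR-122-5p at 0.78 and miR-192-5p at -0.32, and a sum of 5396 and 465. Of the leukocyte and platelet miRNAs, 5 of 5 and 4 of 5 were detected, with a median log2 ratio of -1.32, miR-142a-3p at -2.25 and miR-223-3p at 0.14, and a sum of 23861 and 2145. Of the mesenchymal stromal miRNAs, 4 of 6 and 3 of 6 were detected, with ratios on both sides of 0, from -0.56 for miR-10b-5p over 0.57 for miR-199a-3p to 0.82 for miR-214-3p, and a sum of 2780 and 253, and miR-199a-5p was at background on both arrays. Each sum adds the brightest probe of each miRNA, so unequal binding of the probes weighs in it. Before scaling, the MSC+LLC array was dimmer for 226 of the 240 miRNAs measured on both arrays. The signs of these ratios hold for the 75th percentile scaling, under which the members ranged from -1.10 to 0.17, and the part of any of these cell types in the members' ratios was not tested. Lower RNA from a cell type and fewer vesicles from it cannot be told apart in such samples.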

How the data were processed

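Serum exosomal RNA of 1 LLC and 1 MSC+LLC sample was run on Agilent mouse miRNA arrays with 1 colour, both on the same slide. The deposited scanner files hold background-subtracted intensity per spot from Feature Extraction, version 11.5.1.1 in their headers and 10.7 in the labels. The deposited series table holds log2 values that the authors made with GeneSpring GX. Each equalled log2 of the summed signal minus a constant per array, with undetected sums set to 0.1.

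Control spots and outlier spots (3.04% and 2.95% of miRNA spots) were left out, and none was saturated. Spots were averaged per probe. Each array was divided by its 75th percentile over probes detected on both arrays, and log2 ratios were averaged over a member's detected probes. Bounds used the higher of the probe's own signal and the dimmest detected probe of the other array. The groups had 1 array each, which limits the precision and allowed no test. Sequences and loci came from RefSeq, build GRCm38.p6, while the array design was annotated on an older build. The miRNAs named were the 7 members, their other arms, miRNAs sharing a seed or the shared run, the marker lists and the 2 miRNAs nearest in ratio to each member among those with at least 2 probes measured on both arrays. Not all markers are named. Members and lists were chosen with earlier results of these data known. The functions were tested on simulated data. Software was R 4.3.3 with limma 3.58.1 (normexp) and Python 3.11.15 with matplotlib 3.10.9, numpy 2.4.6 and pandas 2.3.3.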

Additional observations from a re-analysis of the deposited data

How the results depend on the processing

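Under every alternative 6 of the 7 members were measured on both arrays and 0 were at least 2-fold higher. The detection rule does not use the scaling or the fold threshold, so the 6 was fixed under alternatives that change only these. Under the 4 alternatives that lower every ratio by a constant, the 0 was fixed by construction as well. The count at least 2-fold lower was 1 in the main setting, 6 without scaling, with either kind of spike-in and with the 75th percentile taken over all probes, 2 after quantile normalization and in the deposited values, 0 with normexp and with the scanner software's detection flag, and 3 at a 1.5-fold threshold. The miR-130/miR-301 median of -0.63 became -1.84 with all probes in the percentile, -2.84 with the labelling spike-ins, -4.15 without scaling, -4.19 with the hybridization spike-ins, -0.92 after quantile normalization, -0.95 in the deposited values and -0.42 with normexp. In the same order the miR-148/miR-152 median of -0.01 became -1.22, -2.22, -3.53, -3.57, -0.34, -0.37 and 0.83. Apart from the shift each scaling applies by construction, the cause of these moves was not tested. With the detection flag, the brightest probe, outliers kept or spot medians, both family medians moved by less than the spot-to-spot SD. Of the 66 single-member ratios under alternatives, 28 moved by less than that SD, 34 moved lower and 4 higher. The 34 include all 6 members under each of the 4 alternatives that lower every ratio by a constant, where the move was fixed by construction. With the detection flag, miR-301a-3p was at -0.90, since its second probe entered the mean. No paired analysis was possible because there was 1 array a group, and for the same reason no replicate could be left out. Brightness limits miR-148b-3p and miR-301b-3p most, and spots say nothing of the spread between mice.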
